A study of Mus musculus with 8 samples.

Results

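The D-type cyclins, their kinase partners and the inhibitors that restrain them decide whether a cell leaves G1, and they are described here in endocrine cells of the mouse pancreas that had lost Neurod1. The set was chosen by gene symbol and holds 10 genes of the 23284 in the count files: the cyclin genes Ccnd1, Ccnd2 and Ccnd3, the kinase genes Cdk4 and Cdk6, the Cip/Kip inhibitor genes Cdkn1a, Cdkn1b and Cdkn1c, and the INK4 inhibitor genes Cdkn2c and Cdkn2d. All 10 had a row, and 9 passed the filter on low counts; Cdkn2d did not. RNA came from embryonic day 17 pancreas, from cells that carried a Neurog3-Cre transgene and a Cre-dependent Tomato reporter (labelled Neurog3Cre+; RosaTomato+, strain C56BL/J) and were sorted for Tomato. In 4 libraries both Neurod1 alleles were floxed (Neurod1floxed/floxed; called KO here, replicates 8, 9, 17 and 24). In the other 4 only a single allele was floxed (Neurod1floxed/wt; called Het, replicates 6, 7, 13 and 19). The Het cells are therefore not wild type, since Cre acts on their floxed allele too. Neurog3 is switched on in the precursors of every islet cell type, so each library should mix alpha, beta, delta and other endocrine cells and their precursors. RNA of other cell types was present too, as given below. The labels do not say whether replicates came from separate or pooled embryos, so p-values measure the spread between these libraries.

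In the textbook account, D cyclins bind CDK4 or CDK6, and the active kinase phosphorylates the retinoblastoma protein, which frees E2F factors to switch on S-phase genes. INK4 proteins bind CDK4 and CDK6 themselves and keep cyclin D off, whereas Cip/Kip proteins bind cyclin-kinase complexes, above all those of CDK2. In the pancreas, cyclin D2 and CDK4 are the pair best known for beta-cell growth after birth, and p21 and p57 (from Cdkn1a and Cdkn1c) are known in endocrine precursors as they stop dividing.

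Library depth ran from 10350040 to 16080392 counts. Neurod1 stood at 14.8 ± 9.17 CPM in KO and 156 ± 36.5 CPM in Het (CPM, the count scaled to a common library total by TMM; SD and n = 4 in each group). By edgeR's quasi-likelihood test its log2 fold change, KO over Het, was −3.40 with an adjusted p of 0.0165; without KO replicate 9 or any single Het library the adjusted p rose to between 0.0523 and 0.0732, with every log2 fold change at −3.06 or below. Of 8 endocrine genes, Ins1, Ins2 and Gcg fell (log2 fold changes −3.64, −1.63 and −1.04), and all 8 were detected in every library, with summed levels from 18100 to 80500 CPM. Only Ins1 of these 3 was called whichever single library was left out; the adjusted p reached 0.0771 for Ins2 without Het replicate 7 and 0.143 for Gcg without Het replicate 13, and both lost the call without any single Het library, KO replicate 9 or KO replicate 17. With the Y-linked covariate Neurod1 (adjusted p = 0.0725), Ins2 (0.0973) and Gcg (0.170) were not called by edgeR, and Gcg was not called with total counts (0.0559) or with no filter on low counts (0.0523). KO replicate 8 stood apart. Neurod1 was lowest in it, at 2.55 CPM beside 12.9, 22.2 and 21.5 CPM in KO replicates 9, 17 and 24. The same held for 7 of the 8 endocrine genes. All 10 tested mesenchyme markers, of 11 listed, were highest in KO replicate 8. The 11 summed to 9867 CPM there, 381 to 541 CPM in the other KO libraries and 268 to 1248 CPM in Het, and only Twist1 was at 0 in any library. The 6 leukocyte markers summed to 407 CPM in KO replicate 8 and 235 CPM in KO replicate 9, and to 13.7 to 54.0 CPM elsewhere. edgeR called no gene of either list (2 of each had an unadjusted p under 0.05; smallest p: Pdgfrb, adjusted p = 0.267; Csf1r, adjusted p = 0.168). The 10 acinar markers summed to 1377 to 3760 CPM in Het and to 1550 to 4842 CPM in KO, with KO replicate 9 the highest. Y-linked genes were expressed in Het replicate 7 and KO replicates 8, 9 and 24, at 414 to 497 CPM summed, and summed to 0.309 to 0.442 CPM in the others. In bulk RNA, fewer cells of a type and less RNA per cell cannot be told apart.

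None of the 9 tested cell-cycle genes was called at an adjusted p under 0.05, where 1.02% of the 14116 genes tested were called (0.68% lower in KO and 0.34% higher). Ccnd2, Ccnd3 and Cdkn1c had an unadjusted p under 0.05, as did 12.2% of all genes tested. DESeq2, which gave Cdkn1c no p, called 1 member, Ccnd2, where it called 3.75% of genes with an adjusted p. The median log2 fold change of the 9 was 0.00, with 4 lower and 5 higher, beside 0.03 for all tested genes. In no member were the KO and Het libraries fully apart, which was so for 8.03% of all genes tested. Without KO replicate 8, edgeR called Ccnd2 alone, where it called 1.99% of 14307 genes (1.31% lower in KO). In the authors' deposited table, too, no member had an adjusted p under 0.05, where 0.981% of its genes with a p did. The smallest there was that of Ccnd2 (the authors' fold change 0.500, adjusted p = 0.322).

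**Figure D1:**
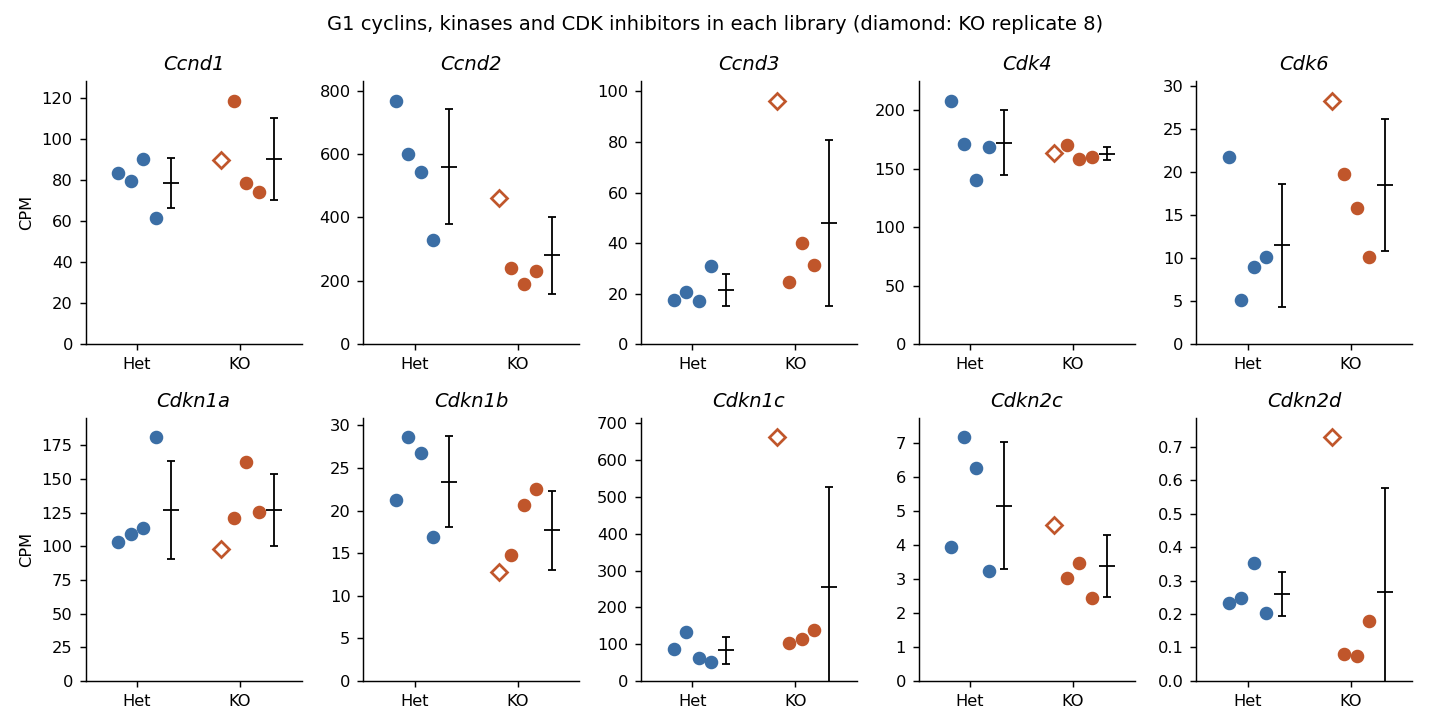
Level of each of the 10 genes (vertical axis, CPM, starting at 0) in the 4 Het (blue) and 4 KO (orange) libraries; the open diamond is KO replicate 8, and the black bar is the mean with its SD (drawn only down to 0 for Cdkn1c and Cdkn2d in KO). Ccnd2 is lower in KO with KO replicate 8 above the lowest Het library, and the high KO means of Ccnd3 and Cdkn1c come with a single high diamond at 96.4 and 663 CPM.

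Per kilobase of the longest coding transcript, a rough allowance for length, the order in Het was Ccnd2 (88.5 ± 28.6 CPM per kb), Cdk4 (83.8 ± 13.5), Cdkn1a (61.0 ± 17.5), Cdkn1c (44.0 ± 19.3), Ccnd1 (21.0 ± 3.24), Ccnd3 (10.2 ± 3.03), Cdkn1b (5.14 ± 1.17), Cdkn2c (2.09 ± 0.75), Cdk6 (0.996 ± 0.620) and Cdkn2d (0.182 ± 0.046; SD, n = 4 each). Which transcript was expressed, and whether reads covered it evenly, was not tested, so the order between genes is approximate. Among the first 4 genes each neighbour differed from the next by less than the sum of their SDs, and so did Cdkn2c and Cdk6; the other neighbours were farther apart than that. In KO the highest mean was that of Cdkn1c, at 134 ± 143 CPM per kb, an order set by KO replicate 8 at 349 CPM per kb; in KO replicates 9 and 24 Cdk4 was highest, and in KO replicate 17 Cdkn1a was, at 78.3 CPM per kb beside 77.2 for Cdk4. Cdk4 (79.3 ± 2.58) and Cdkn1a (61.0 ± 12.8) stood above Ccnd2 (44.3 ± 19.3) in the KO means.

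Among the D cyclins, Ccnd2, which encodes cyclin D2, was the most abundant and the one with the smallest p. It stood at 769, 600, 542 and 330 CPM in Het replicates 6, 7, 13 and 19, and at 460, 241, 189 and 231 CPM in KO replicates 8, 9, 17 and 24. KO replicates 9, 17 and 24 lay below every Het library, and KO replicate 8 lay above Het replicate 19. The group means were 280 ± 122 CPM in KO and 560 ± 181 CPM in Het (SD, n = 4 each). The log2 fold change was −0.9998 (SE 0.31, 95% interval −1.69 to −0.31), with an adjusted p of 0.210 by edgeR's quasi-likelihood test. Without KO replicate 8, the KO mean was 220 ± 27.5 CPM (SD, n = 3), and Ccnd2 fell with a log2 fold change of −1.36 (SE 0.24, edgeR adjusted p = 0.0119). That the remaining KO libraries lay below every Het library (as for 7.62% of all genes tested) was fixed by leaving out the only KO library that overlapped, so it adds no evidence.

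The call for Ccnd2 came and went with the method. It was called by DESeq2 (adjusted p = 0.0262), by limma-voom with sample quality weights (log2 fold change −1.14, adjusted p = 0.00817; 3.54% of genes called), and by edgeR with the mean of the mesenchyme markers as a covariate (−1.24, adjusted p = 0.000462; 4.2% of genes called). It was not called with a Y-linked covariate (−1.24, adjusted p = 0.316), and leaving out a single library gave no call (adjusted p from 0.136 to 0.430) unless it was KO replicate 8. That library also had the lowest Neurod1 level, as given above. Its limma-voom quality weight was the lowest, at 0.278 beside 0.420 to 2.16 in the others. Its mesenchyme mean, at 9.06, was far above those of the others (3.73 to 6.06). The limma-voom and mesenchyme fits thus set KO replicate 8 apart, much as leaving it out does, so these calls are not independent of each other. With KO replicate 8 left out together with a further library, Ccnd2 was called in 5 of 7 cases. It was missed without KO replicate 17 (adjusted p = 0.0805 by edgeR) or 24 (0.0704). Among the libraries with Y-linked RNA, Ccnd2 stood at 600 CPM in the single Het library against 231 to 460 CPM in KO. Among those without, it stood at 330 to 769 CPM in Het against 189 CPM in the single KO library. No strand-specific counting is stated in the sources used here, so reads of genes that overlap on opposite strands cannot be told apart. An antisense gene, 9330179D12Rik, overlaps Ccnd2 exons and stood at 0.377 to 2.07 CPM.

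Ccnd1, which encodes cyclin D1, differed little between the group means, which were 90.3 ± 19.9 CPM in KO and 78.5 ± 12.1 CPM in Het (SD, n = 4 each). Its Het libraries held 83.1, 79.6, 89.9 and 61.5 CPM and its KO libraries 89.8, 119, 78.6 and 74.2 CPM, so the ranges overlapped, with KO replicate 9 the highest of all. This was a log2 fold change of 0.20 (SE 0.19, 95% interval −0.21 to 0.61; edgeR adjusted p = 0.706). It was 0.0411 without KO replicate 9, 0.0893 without Het replicate 19 and −0.0429 without KO replicates 8 and 9.

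Ccnd3, which encodes cyclin D3, had the least abundant transcript of the D cyclins in Het, at 17.5, 20.8, 17.05 and 30.8 CPM. In KO it stood at 96.4, 24.5, 39.9 and 31.3 CPM. KO replicate 8 was 3.94 times the median of the other 7 libraries, and KO replicate 9 lay below Het replicate 19. Its log2 fold change was 1.16 (SE 0.41, 95% interval 0.25 to 2.06; edgeR adjusted p = 0.281). Without KO replicate 8 it was 0.56 (SE 0.26, edgeR adjusted p = 0.365). The mesenchyme markers were highest in the same library, as given above; with their mean as a covariate the log2 fold change was 0.77 (edgeR adjusted p = 0.230). Exons of the opposite-strand gene Bysl overlap Ccnd3, and Bysl stood at 14.9 to 20.8 CPM with a log2 fold change of 0.15.

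**Figure D2:**
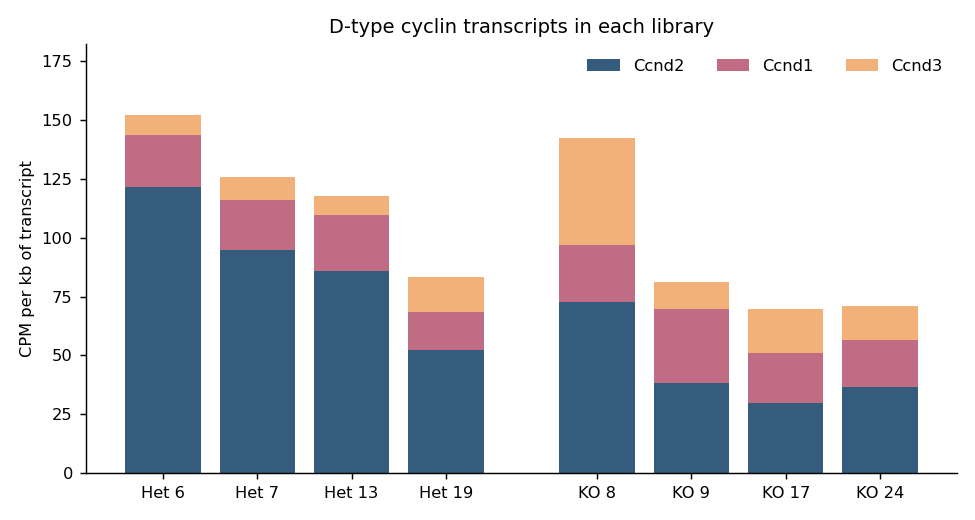
Summed level of the D-type cyclin transcripts (vertical axis, CPM per kb of the longest coding transcript) in each library, stacked as Ccnd2, Ccnd1 and Ccnd3. Ccnd2 makes up 62.7% to 79.9% of the sum in Het and 42.8% to 51.3% in KO, while the sum itself overlaps between the groups because KO replicate 8 reaches 142 CPM per kb.

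The Ccnd2 share of the D-cyclin transcripts did not overlap between the genotypes, though no such share was taken over all genes. In KO replicate 8 the low Ccnd2 share came with Ccnd3 at 32.05% of the sum. Against Ccnd1 alone, the log2 ratio of Ccnd2 counts in that library (2.36) was close to that in Het replicate 19 (2.42). Per kilobase, Ccnd2 gave 72.7 ± 7.28% of the D-cyclin transcripts in Het and 48.0 ± 4.04% in KO (SD, n = 4 each), and the lowest Het library, at 62.7%, lay above the highest KO library, at 51.3%. Ccnd3 gave 9.42 ± 5.50% in Het and 23.5 ± 7.71% in KO, and Ccnd1 gave 17.9 ± 2.68% and 28.5 ± 9.09%. Both of these shares overlapped: Ccnd3 gave 17.5% in Het replicate 19 and 14.3% in KO replicate 9, and Ccnd1 gave 16.9% in KO replicate 8, inside the Het range. The sum of the D-cyclin transcripts was 120 ± 28.4 CPM per kb in Het and 91.1 ± 34.5 CPM per kb in KO. It ran from 83.2 to 152 CPM per kb in Het. KO replicate 8, at 142 CPM per kb, lay inside that range, and KO replicates 9, 17 and 24, at 81.3, 69.7 and 71.1 CPM per kb, lay below it.

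Ratios of counts within a library do not depend on how libraries are scaled. The log2 ratio of Ccnd2 to Ccnd1 stood at 3.21, 2.91, 2.59 and 2.42 in the Het libraries and 2.36, 1.02, 1.27 and 1.64 in the KO libraries. Every KO library was below every Het library, by a narrow margin for KO replicate 8. On average KO was 1.21 lower (a difference of −1.21), and 5.07% of tested genes with counts in every library had a ratio to Ccnd1 that was lower in all KO libraries. The log2 ratio of Ccnd2 to Ccnd3 ran 5.46, 4.85, 4.99 and 3.42 in the Het libraries and 2.25, 3.30, 2.24 and 2.89 in KO, a mean difference of −2.01. Here too the groups did not overlap, but 13.8% of tested genes had a ratio to Ccnd3 that was lower in all KO libraries. These shares and ratios were taken with the values of their genes known, and they are given with no test.

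**Figure D3:**
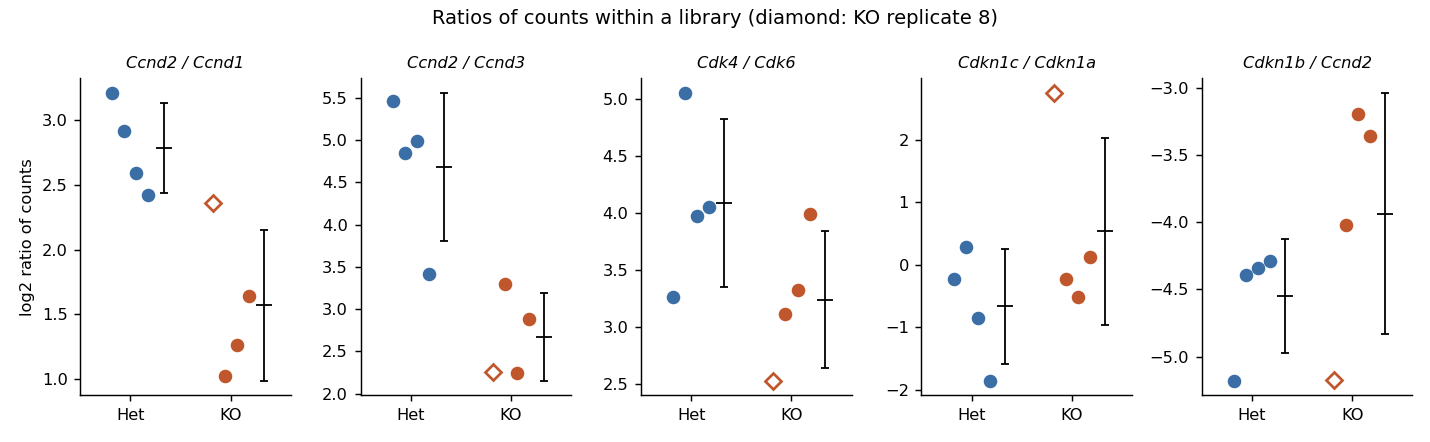
Log2 ratio of the counts of a pair of genes within each library (vertical axis) for Het (blue) and KO (orange), with mean and SD in black and KO replicate 8 as an open diamond. The ratios of Ccnd2 to Ccnd1 and to Ccnd3 are lower in all KO libraries than in all Het libraries, and the other ratios overlap.

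Of the kinases, Cdk4 was the steadiest of the tested members. It stood at 208, 171, 140 and 169 CPM in Het and at 163, 170, 158 and 160 CPM in KO, with KO values inside the Het range. The group means were 172 ± 27.8 and 163 ± 5.29 CPM (SD, n = 4 each). That is a log2 fold change of −0.08 (SE 0.14, 95% interval −0.38 to 0.23; edgeR adjusted p = 0.865). The sign turned without Het replicate 6 (0.0246) and with limma-voom (0.0258). Tspan31, whose exons overlap Cdk4 on the opposite strand, stood at 74.3 to 106 CPM, so reads in that overlap could belong to either gene.

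Cdk6, which encodes the second kinase partner of the D cyclins, was low and variable. Het libraries held 21.7, 5.13, 8.92 and 10.1 CPM and KO libraries 28.3, 19.7, 15.8 and 10.1 CPM. KO replicate 8 and Het replicate 6 were the highest of their groups. The log2 fold change of 0.69 had a 95% interval of −0.32 to 1.69 (edgeR adjusted p = 0.579). It was 1.197 without Het replicate 6, 0.44 without Het replicate 7 and 0.40 without KO replicate 8, with no call in any of these. The log2 ratio of Cdk4 to Cdk6 averaged 3.24 ± 0.60 over the KO libraries and 4.09 ± 0.74 over the Het libraries (SD, n = 4), with overlapping libraries (4.06% of genes had a ratio to Cdk6 whose groups were apart).

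Among the Cip/Kip inhibitors, Cdkn1a, the gene of p21 and a classic p53 target, stood at 127 CPM in the mean of both groups (SD 26.7 in KO and 36.4 in Het, n = 4 each). Het libraries held 103, 109, 114 and 181 CPM and KO libraries 98.3, 121, 163 and 126 CPM, with Het replicate 19 the highest of all. This gave a log2 fold change of 0.00 (SE 0.21, 95% interval −0.47 to 0.48; edgeR adjusted p = 0.998). Its sign was not stable: it ran from −0.16 to 0.22 with a single library left out, and was −0.0160 with no filter on low counts.

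Cdkn1b, the gene of p27, stood at 21.2, 28.6, 26.8 and 16.9 CPM in Het and at 12.8, 14.8, 20.7 and 22.6 CPM in KO. The lowest values were those of KO replicates 8 and 9, and the groups overlapped. Its log2 fold change was −0.40 (SE 0.26, 95% interval −0.98 to 0.18; edgeR adjusted p = 0.571). Set against Ccnd2 within a library, the log2 ratio of Cdkn1b to Ccnd2 was −4.02, −3.19 and −3.36 in KO replicates 9, 17 and 24 and ran from −5.18 to −4.29 in Het. KO replicate 8, at −5.17, lay at the bottom of the Het range (18.8% of genes had a ratio to Ccnd2 whose groups were apart).

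Cdkn1c, an imprinted gene that encodes p57, had the widest range of the tested members. It stood at 87.8, 133, 62.9 and 50.1 CPM in Het and at 663, 103, 114 and 137 CPM in KO. KO replicate 8 was 6.42 times the median of the other libraries, and the other KO libraries lay between 103 and 137 CPM, where Het replicate 7 also lay. Its log2 fold change was 1.604 (SE 0.60, 95% interval 0.28 to 2.93; edgeR adjusted p = 0.310). Without KO replicate 8 it was 0.49 (SE 0.27, 95% interval −0.11 to 1.079; edgeR adjusted p = 0.459). In Het, the order of the Cdkn1c levels was that of the mesenchyme marker means, which were 6.06, 5.90, 4.70 and 3.73 (mean log2 CPM) in replicates 7, 6, 13 and 19. In KO replicates 9, 17 and 24 these means were 5.002, 4.58 and 4.66. There the order differed, as KO replicate 9 had the highest of these means and the lowest Cdkn1c level. With the mesenchyme mean as a covariate the log2 fold change was 0.81 (SE 0.16, edgeR adjusted p = 0.0123), the only setting that called Cdkn1c. DESeq2 gave it no p, and limma-voom with quality weights gave 0.91 (adjusted p = 0.157). Set against Cdkn1a within a library, the mean log2 ratio of Cdkn1c was 0.53 over the KO libraries and −0.66 over the Het libraries, with SDs of 1.504 and 0.92 (n = 4 each). The groups overlapped (3.87% of genes had a ratio to Cdkn1a whose groups were apart).

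**Figure D4:**
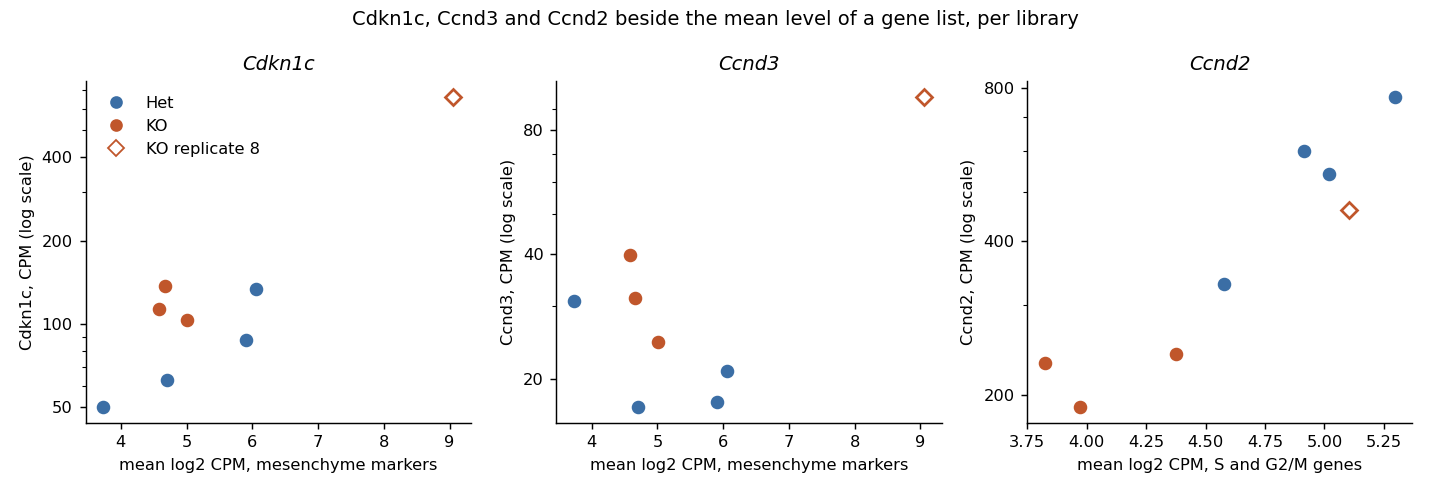
Level of Cdkn1c, Ccnd3 and Ccnd2 (vertical axes, CPM on a log scale) against the mean log2 CPM of the mesenchyme markers or of 30 S and G2/M genes (horizontal axes) in each library. KO replicate 8 (open diamond) is far to the right on the mesenchyme axis, at 9.06, and its S and G2/M mean of 5.10 lies among the Het libraries.

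The INK4 inhibitors were scarce. Cdkn2c, the gene of p18, stood at 3.94, 7.17, 6.27 and 3.24 CPM in Het and at 4.59, 3.03, 3.47 and 2.43 CPM in KO, from 27 to 116 counts per library. It had a log2 fold change of −0.61 (SE 0.44, 95% interval −1.59 to 0.37; edgeR adjusted p = 0.619). KO replicates 9 and 24 were below all Het libraries, and the others overlapped. Cdkn2d, the gene of p19, had 3, 4, 4 and 2 counts in Het and 10, 1, 1 and 2 counts in KO, too few for a test. Of its neighbours in function, Cdkn2a was listed at 0 in all libraries, which allows up to 0.304 CPM in the shallowest library (3 counts; counting error only). The globin genes Hbb-b1, Hba-a1 and Hba-a2 were listed at 0 in all libraries as well.

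**Figure D5:**
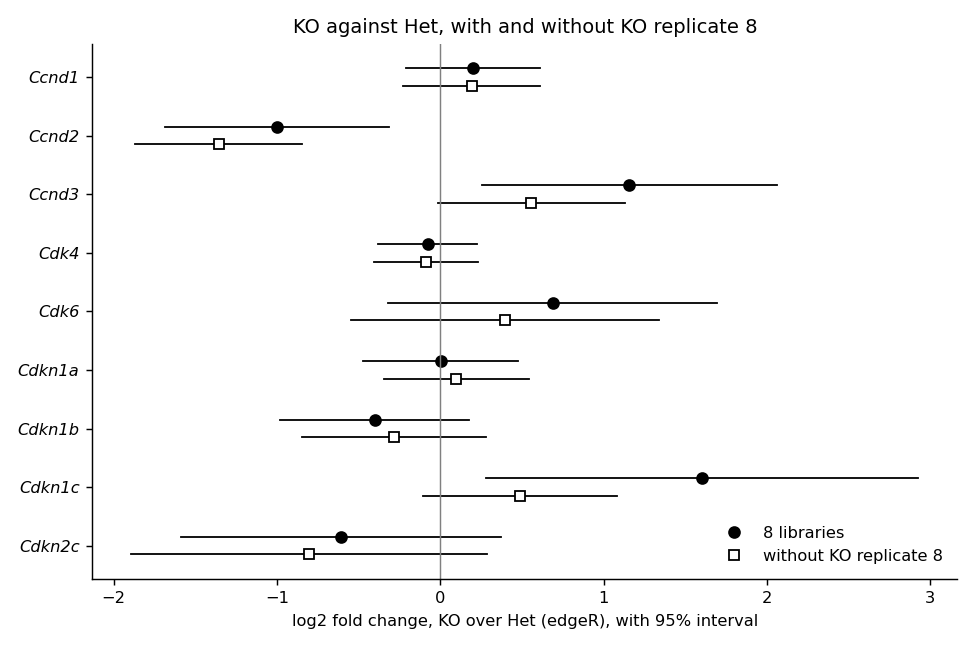
Log2 fold change, KO over Het, of the 9 tested genes with its 95% interval (horizontal axis), from all 8 libraries (filled circles) and without KO replicate 8 (open squares). Without that library Ccnd2 moves from −0.9998 to −1.36, while Ccnd3 and Cdkn1c move from 1.16 and 1.604 to 0.56 and 0.49.

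Further down the pathway, none of 23 tested G1 and G1/S genes (24 listed: cyclin E, Cdk2, retinoblastoma and E2F family genes and their partners) was called by edgeR, with 12 lower, 11 higher, 1 at an unadjusted p under 0.05 and a median of −0.09. The smallest p was that of Mycn, a growth-promoting transcription factor gene, at 9.17 ± 4.17 CPM in KO and 4.20 ± 0.66 CPM in Het (SD, n = 4 each; log2 fold change 1.13, edgeR adjusted p = 0.291), and its KO libraries were all higher. KO replicate 8 was the highest library for 12 of the 23. Without it, 18 were lower (50.6% of all genes tested were), and the median was −0.22 (−0.0048 for all genes tested). Cks1b, which encodes a small CDK-binding subunit, was then called (log2 fold change −0.86, edgeR adjusted p = 0.0470), where edgeR called 1.99% of all genes tested.

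Of 30 S and G2/M genes edgeR called none. Among them 29 were lower in the KO mean (46.6% of all genes tested were), with a median log2 fold change of −0.58 (0.03 for all tested genes). An unadjusted p under 0.05 was found for 9, as for 12.2% of all genes tested. E2f8, an E2F family repressor made in S phase, had the smallest p (log2 fold change −1.28, SE 0.37, edgeR adjusted p = 0.172). Their mean log2 CPM was 5.30, 4.91, 5.02 and 4.58 in Het replicates 6, 7, 13 and 19, and 5.10, 4.37, 3.97 and 3.82 in KO replicates 8, 9, 17 and 24. Ccnd2 was highest where this mean was highest (Het replicate 6) and lower than in every Het library in the 3 KO libraries with the lowest means. KO replicate 8 had the mean next to the highest, and its Ccnd2 level of 460 CPM was below those of Het replicates 7 and 13. Without KO replicate 8 all 30 were lower (50.6% of all genes tested were), with a median of −0.94 (−0.0048 for all genes tested). Ccnb2, Mcm3 and Rrm2 were then called, where edgeR called 1.99% of all genes tested.

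Of 18 genes known to act on the members in islets or other cells, edgeR called none, and 4 had an unadjusted p under 0.05; 8 were lower and the median was 0.04. The smallest p was that of Prlr, the prolactin receptor gene, whose signal is known to raise Ccnd2 in beta cells. It stood at 5.99 ± 2.03 CPM in KO and 24.9 ± 14.0 CPM in Het (SD, n = 4 each). Every KO library was below every Het library (the groups were apart for 8.03% of all genes tested). The log2 fold change was −2.06 (edgeR adjusted p = 0.0720). Prlr was called without KO replicate 8 (−2.22, edgeR adjusted p = 0.0337), and the adjusted p reached 0.200 with another single library left out. The others at an unadjusted p under 0.05 were higher in KO: Nfatc1 (0.73, edgeR adjusted p = 0.123), Trp53 (0.50, 0.296) and Nfatc2 (0.54, 0.383). Whether Prlr bore on Ccnd2 here was not tested. Of 10 p53 target genes, 9 were tested and edgeR called none, with 2 at an unadjusted p under 0.05 and a median of −0.11. Trp53inp1 had the smallest p (0.56, edgeR adjusted p = 0.223). It was called without KO replicate 8 (0.69, edgeR adjusted p = 0.0199), but its adjusted p reached 0.435 with another single library left out. Of 10 genes around Cdkn1c in its imprinted domain, 7 were tested and edgeR called none, with 1 at an unadjusted p under 0.05 and a median of 0.07. Tssc4 had the smallest p there (−0.75, edgeR adjusted p = 0.255), and Kcnq1ot1, the noncoding RNA that silences the paternal copies in this domain, had a log2 fold change of −0.07.

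Among the other marker lists, the duct list held 1 called gene of 6, Cftr, which rose (log2 fold change 2.23, edgeR adjusted p = 0.0426), and the endothelial list 1 of 4 tested, Cldn5, which rose from 0.204 ± 0.139 to 3.22 ± 0.48 CPM (SD, n = 4 each; edgeR adjusted p = 0.0311). With a single library left out, Cftr kept its call only without Het replicate 7 or KO replicate 8 and Cldn5 only without KO replicate 8 (adjusted p up to 0.164 without Het replicate 13 for Cftr and 0.117 without it for Cldn5). Neither was called with the Y-linked covariate (edgeR adjusted p = 0.126 for Cftr and 0.116 for Cldn5), and Cldn5 was not called with no filter on low counts (0.0547). Of 9 tested acinar markers, 4 tested Schwann and neural crest markers and the single tested erythroid marker, edgeR called none and none had an unadjusted p under 0.05 (smallest p: Cela1, Sox10 and Alas2, with log2 fold changes of 0.44, −1.06 and −0.13).

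The members with the largest spread over the 8 libraries were Cdkn1c and Ccnd3, with SDs of 1.12 and 0.81 in log2 CPM. In a search of 10411 genes whose mean reached 8 CPM, the profiles nearest to that of Cdkn1c were those of Tgfbr3 (root-mean-square difference of centred log2 CPM over the 8 libraries 0.198), Plxdc2 (0.204) and Pappa (0.259). Each was highest in KO replicate 8, at 182, 148 and 52.97 CPM. Among the profiles nearest to that of Ccnd3 were those of Zyx (0.263) and Zfp521 (0.269), also highest in that library, at 89.4 and 40.7 CPM.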

How the data were processed

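The authors deposited raw read counts, 1 file for each library, with genes named by symbol. The tools listed in the submitters' processing notes are TopHat2 2.1.0, bcl2fastq 1.8.4, DESeq and Cufflinks 2.0.2, and the build is mm9; which tool counted the reads, and on what annotation, is not given in the sources used here. All libraries were made from amplified cDNA, per the labels' protocols, so amplified copies count as reads. A further deposited table holds the authors' comparison of KO with Het: the mean signal (normalized counts) per group, the fold change as a ratio, its log2, and p-values, per the file headers.

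Of 23284 genes, 14116 passed edgeR 4.0.16 filterByExpr (minimum count 10, minimum total count 15). Libraries were scaled by TMM. KO was compared with Het by the quasi-likelihood F test with no covariate, two-sided, and p-values were adjusted by Benjamini-Hochberg over all tested genes; 95% intervals use the test's degrees of freedom. The method was tested on simulated data. No 2 libraries were identical (correlations of log2 CPM from 0.814 to 0.965), and the groups share no replicate number. Levels per kilobase use the longest coding transcript in GENCODE M21, which is of another build than the files, so no coordinates are given.

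The members and lists were chosen with earlier results of these data known. The lists covered other G1 and G1/S, S and G2/M, regulator, p53 target and imprinted-domain genes, and markers of endocrine, mesenchyme, acinar, duct, endothelial, leukocyte, erythroid and Schwann cells, with Y-linked genes. Kmt2a and Adgre1 were matched by older symbols through RefSeq synonyms. Named genes are Neurod1, all members, each list's called genes or else its smallest p, and the 3 nearest profiles of the 2 most variable members (1 of these is not reported here); any others were picked with their values in view. The alternatives tried were scaling by median ratio or by total counts, DESeq2 1.42.0, limma 3.58.1 voom with quality weights, no filter, 2 CPM in 4 libraries, mesenchyme and Y-linked covariates, and each library left out. Leaving out KO replicate 8 with another library, or with the Y-linked covariate, was added after seeing the data.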

Additional observations from a re-analysis of the deposited data

Results flagged for a closer look

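In 36 groups of 4 libraries, a library lay far from the other 3 of its group in 5 cases, where chance flags about 1 group in 20. In KO replicate 8 these were Cdkn1c, at 663 CPM, Cdkn2d, at 0.729 CPM (10 counts), and the mean log2 CPM of the mesenchyme markers, at 9.06. In Het they were Cdkn1a in replicate 19, at 181 CPM, and the log2 ratio of Cdkn1b to Ccnd2 in replicate 6, at −5.18.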

How the results depend on the processing

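No paired analysis was possible because the KO and Het libraries share no replicate number. With 1 library left out, between 29 and 285 genes were called over all genes tested, and 0 to 1 members, the 1 being Ccnd2 without KO replicate 8. DESeq2 called 520 genes and 1 member, limma-voom with quality weights 500 and 1, the mesenchyme covariate 593 and 2, and the Y-linked covariate 28 and 0. Without KO replicate 8 and another library, 76 genes were called when that was KO replicate 24, 85 for KO replicate 17, 284 for Het replicate 6, 416 for Het replicate 19, and 133 to 170 in the remaining cases.

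Ccnd2 had a log2 fold change between −1.36 and −0.81 with 1 library left out. It was called by DESeq2 (−0.998), limma-voom (−1.14), and with the mesenchyme covariate (−1.24). It was also called without KO replicate 8 and Het replicate 6 (−1.17), Het replicate 7 (−1.32), Het replicate 13 (−1.37), Het replicate 19 (−1.55) or KO replicate 9 (−1.42), and without KO replicate 8 when the Y-linked covariate was added (−1.45), each with 1 member called. Cdkn1c was called with the mesenchyme covariate (0.81). Of 215 values of members with an adjusted p under other settings, 192 kept their direction and their side of the threshold, 11 gained a call and 12 changed sign. No member was called in the main fit, so no call could be lost, and the settings share most of their libraries. The 192 are therefore no measure of robustness.

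The sign turned only for members near 0. Ccnd1 was −0.0429 without KO replicates 8 and 9 and at most 0.31 (without KO replicates 8 and 24). Cdk4 was 0.0258 by limma-voom and 0.01 without KO replicate 8 and Het replicate 6, and ran from −0.17 to 0.0246 with 1 library left out. Cdkn1a was −0.0160 with no filter, −0.00556 with the filter of 2 CPM, −0.05 without KO replicates 8 and 17, at most 0.31 without KO replicate 8 and a further library, and ran from −0.16 to 0.22 with 1 library left out. Beyond the members, Alas2 was 0.0058 with the mesenchyme covariate and 0.0194 with the Y-linked one. It was 0.22 and 0.0153 without KO replicate 8 and Het replicate 19 or KO replicate 24, and 0.0153 without KO replicate 8 with the Y-linked covariate. It ran from −0.28 to 0.20, and Cela1 from −0.0175 to 0.64, with 1 library left out; Cela1 reached 0.94 without KO replicates 8 and 24. The causes were not tested. With 1 library left out, the difference between groups ran from −1.48 to −1.03 for the log2 ratio of Ccnd2 to Ccnd1 and from −2.43 to −1.75 for that of Ccnd2 to Ccnd3. Depth left Cdkn2d, with 1 to 10 counts per library, untested.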
